A study of Mus musculus with 17 samples.

Results

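Transcripts of neutrophil granule proteins, of neutrophil receptors and of the alarmins S100A8 and S100A9 were followed in macrophages sorted from mouse liver, the Kupffer cells (KCs), which live in its sinusoids. The 10 genes, S100a8, S100a9, Ngp, Camp, Ltf, Retnlg, Mmp8, Mmp9, Cxcr2 and Csf3r, were taken by symbol, and all 10 were found among the 25124 genes of each of the 3 deposited tables. The first table held TIM4+CD206+ KCs and the second TIM4+CD206hi KCs, each with 3 samples of untreated, tumour-free livers and 3 samples of livers 2 weeks after tumour cells had been injected into the portal vein. The third held KCs of untreated mice without tumour, with 3 Id3f/f samples, in which the gene for the transcriptional regulator ID3 is flanked by loxP sites but intact, and 2 Clec4fcreId3f/f samples, in which Cre driven from the KC gene Clec4f deletes it. Strain and age were not given for these samples in the labels, nor whether each sample came from its own mouse, so the p-values measure the spread between samples, which may be technical. The labels of the KCs from Id3f/f and Clec4fcreId3f/f mice gave no CD206 gate.

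Neutrophils fill their granules in order while they mature in the bone marrow. Azurophil granule proteins such as myeloperoxidase (Mpo) and neutrophil elastase (Elane) are made by promyelocytes. Specific granule proteins (Ngp, Camp, Ltf) are made by myelocytes and metamyelocytes under the transcription factor C/EBPε, and gelatinase B (Mmp9) and the chemokine receptor gene Cxcr2 come later. Neutrophil collagenase (Mmp8) is likewise stored in granules. S100A8 and S100A9 form the heterodimer calprotectin, which neutrophils hold in the cytosol in large amounts and which signals through TLR4 when released. Both alarmin genes are also transcribed by monocytes and by stimulated macrophages, as is Mmp9.

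The sort required F4/80 and TIM4 and removed cells with surface Ly6G, the marker of mouse neutrophils. All 17 KC markers tested, among them Clec4f, Timd4 and Vsig4, were measured above the filter in all 3 tables. Their summed level, the log2 of the sum of linear values, was 21.41 to 21.89 in tumour-free and 21.05 to 21.15 in tumour-bearing TIM4+CD206+ KCs, where 3 were called lower with tumour. The corresponding ranges for TIM4+CD206hi KCs were 20.61 to 20.94 and 20.37 to 20.53, with 0 of the 17 called by limma (1 higher and 4 lower at an unadjusted p under 0.05). Values are on the authors' log2 scale, which draws genes with few reads towards their mean, so that differences of low genes are understated, and read depth cannot be had from it. Each table was normalized separately, so tests were made only within a table. In RNA of a sorted population, more cells that express a gene and more RNA of it per cell cannot be told apart.

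All 10 genes lie apart from any other annotated gene (GENCODE M21, GRCm38), so reads of an overlapping gene do not enter their values. S100a8 (chromosome 3, 90668978 to 90670035) and S100a9 (chromosome 3, 90692632 to 90695721) are neighbours, 22596 bases apart on opposite strands. Camp (chromosome 9, 109847379 to 109849617), Ngp (chromosome 9, 110419747 to 110423012) and Ltf (chromosome 9, 111019271 to 111042767) lie in 1 stretch of chromosome 9, with gaps of 570129 and 596258 bases. The 250 bases before the RefSeq start (GRCm38.p6) are shown for the alarmin genes and for Ngp and Camp, because their values moved closely together (below), a comparison that could be made for the 8 members tested in all 3 tables and so not for Ltf or Cxcr2. They run 5′ to 3′ on the strand of the gene, at chr3:90668821-90669070 (plus strand), chr3:90695722-90695971 (minus), chr9:110419558-110419807 (plus) and chr9:109849457-109849706 (minus). For S100a8, Ngp and Camp the GENCODE gene begins before the RefSeq start, so their windows reach into the gene spans given above. Capitals mark matches to a C/EBP motif (TTGCNNAA, either strand), a PU.1-type motif (GAGGAAG, either strand) or a TATA box (TATAAA, strand of the gene).

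S100a8: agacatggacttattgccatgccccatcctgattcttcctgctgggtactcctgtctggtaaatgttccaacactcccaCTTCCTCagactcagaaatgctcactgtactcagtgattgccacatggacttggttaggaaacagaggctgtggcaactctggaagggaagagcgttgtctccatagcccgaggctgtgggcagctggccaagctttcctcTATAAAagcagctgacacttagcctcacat
S100a9: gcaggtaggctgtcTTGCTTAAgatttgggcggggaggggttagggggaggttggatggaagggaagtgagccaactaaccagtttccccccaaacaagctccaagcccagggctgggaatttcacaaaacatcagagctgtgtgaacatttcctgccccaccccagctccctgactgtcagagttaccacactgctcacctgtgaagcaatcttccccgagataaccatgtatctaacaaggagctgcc
Ngp: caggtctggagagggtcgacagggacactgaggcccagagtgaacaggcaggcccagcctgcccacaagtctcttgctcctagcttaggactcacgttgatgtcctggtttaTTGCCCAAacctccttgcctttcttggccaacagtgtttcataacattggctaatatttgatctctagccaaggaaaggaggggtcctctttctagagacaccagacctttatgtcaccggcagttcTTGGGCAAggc
Camp: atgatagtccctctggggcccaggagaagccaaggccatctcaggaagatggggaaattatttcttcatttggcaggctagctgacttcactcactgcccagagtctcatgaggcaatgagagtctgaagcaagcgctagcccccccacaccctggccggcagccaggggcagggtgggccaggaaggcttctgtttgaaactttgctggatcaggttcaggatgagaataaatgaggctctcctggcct

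The C/EBP letters stood in the windows of 5 of the 9 members with a RefSeq entry (S100a9, Ngp, Ltf, Retnlg and Mmp8), against 9.56% of 32851 promoters. Ngp held 2 matches, starting 138 and 11 bases before the start. The PU.1-type letters stood in 3 of 9 (S100a8, Mmp8 and Csf3r), against 10.6%, and TATAAA in 1 (S100a8, 30 bases before the start), against 7.59%. No marked motif overlapped another in the windows shown, and that of Camp held none. A match describes the letters only.

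At rest the 10 genes spanned a wide range of levels in KCs. Per kilobase of exon, with log2 kilobases subtracted from the group mean, S100a9 stood at 12.05 in tumour-free TIM4+CD206+ KCs, above 96.7% of the genes tested in that table, and S100a8 at 11.25, above 93.9%. Csf3r, the receptor for the growth factor G-CSF, stood at 10.45 (90.3%) and the gelatinase gene Mmp9 at 10.02 (87.8%). The resistin family gene Retnlg (9.61) and the granule gene Ngp (9.06) followed, then Camp, the cathelicidin gene, at 7.87. Ltf (lactoferrin) at 6.91, Cxcr2 (the receptor for CXCL1 and CXCL2) at 6.05 and Mmp8 (neutrophil collagenase) at 6.01 were lowest. Cxcr2 and Mmp8 differed in that order by less than their spread. In tumour-free TIM4+CD206hi KCs the order at the top was the same, with S100a9 at 10.97 per kilobase, above 94% of genes, S100a8 at 10.43 and Csf3r at 10.14.

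**Figure D1:**
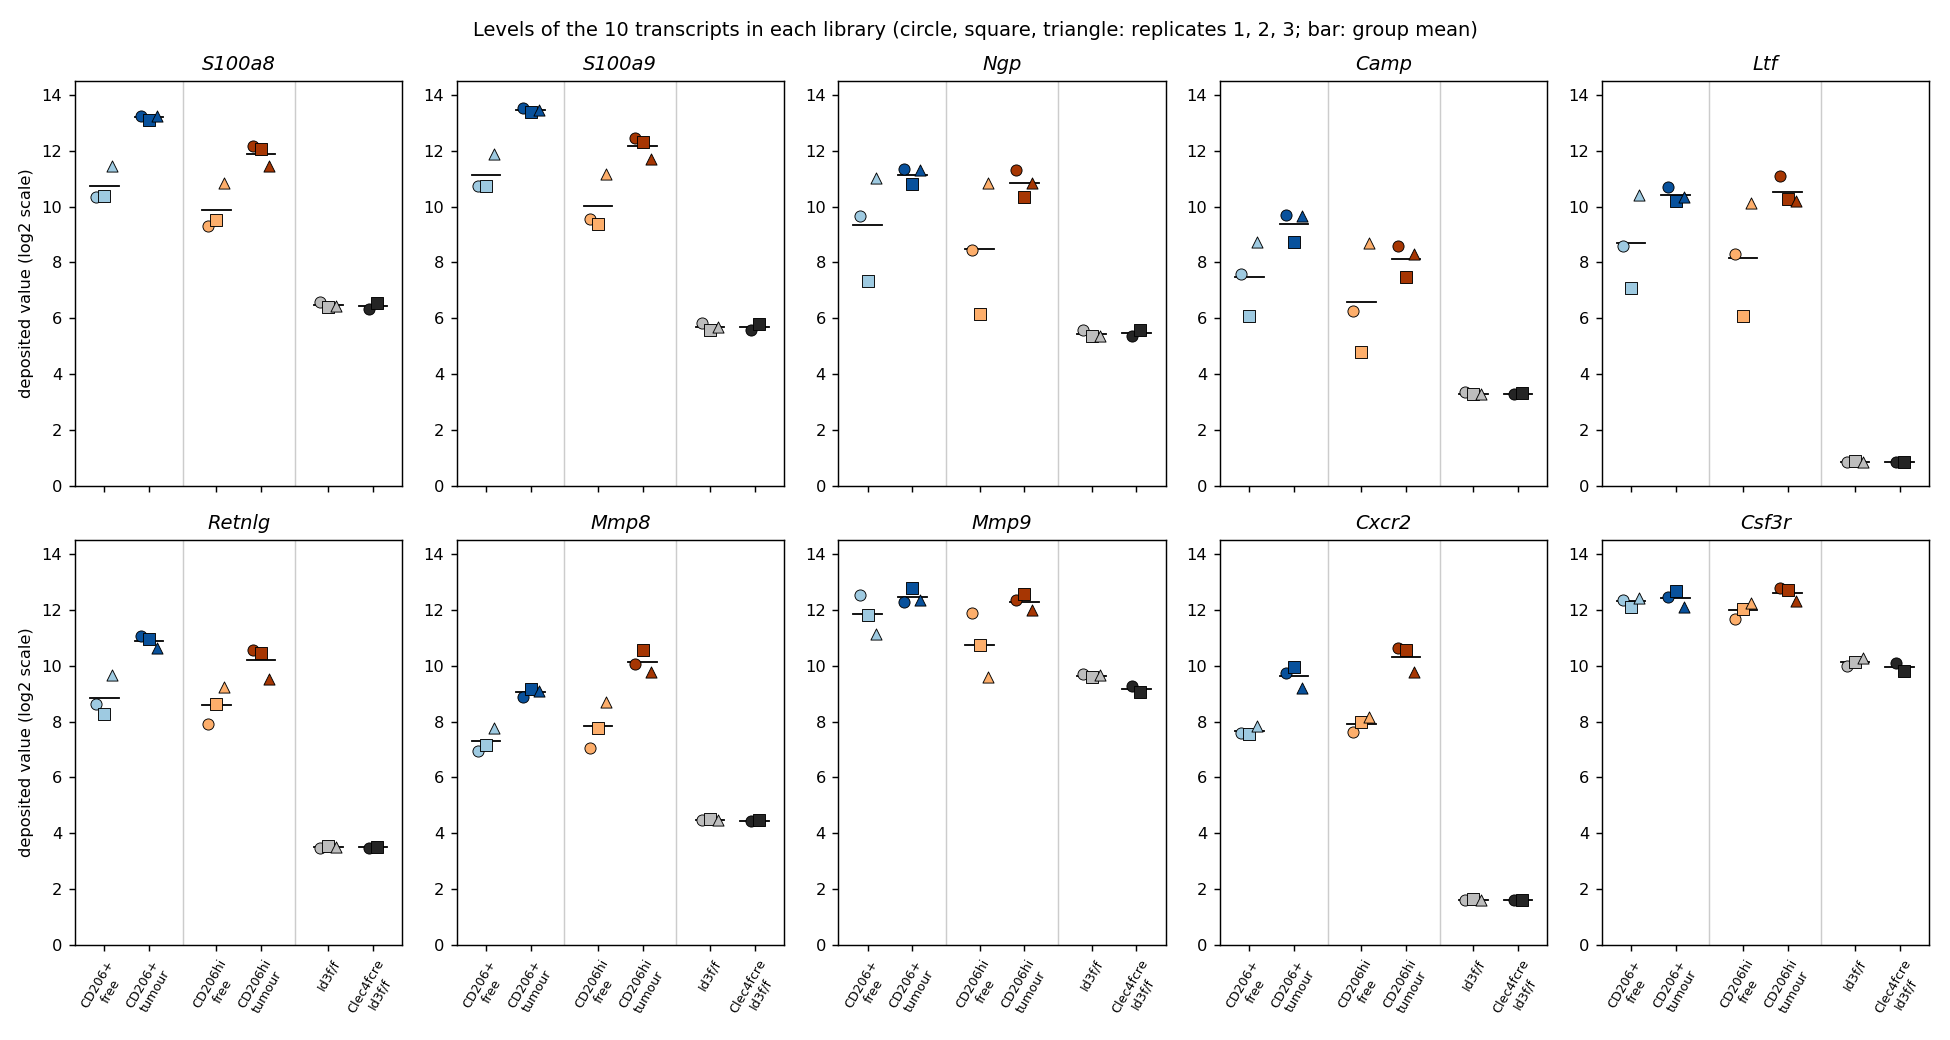
Deposited value (log2 scale, vertical axis) of each of the 10 transcripts in each of 17 libraries, by group; points are libraries, with a marker for each replicate number, and bars are group means. Each KC table was normalized separately. The alarmins of tumour-bearing TIM4+CD206+ KCs sit between 13.09 and 13.53, above every tumour-free library, while the tumour-free values of Ngp spread from 7.35 to 11.03.

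Which of these transcripts differed between KCs of tumour-bearing and tumour-free livers was asked first in TIM4+CD206+ KCs. S100a8 and S100a9, Cxcr2, Retnlg and Mmp8 were higher with tumour. Those are 5 of the 10, and 0 members were lower, at an adjusted p under 0.05 (limma, adjusted by Benjamini-Hochberg over all genes tested). Of all 13233 genes tested, 3.54% were called, 2.55% higher and 0.998% lower. The tumour-bearing samples of the same 5 members all lay above the tumour-free ones, and those of 0 members all lay below, where 12.9% and 10.5% of genes tested did so. The median difference of the members was 1.85 log2 units, beside 0.02 over all genes tested. Ngp, Camp, Ltf, Mmp9 and Csf3r did not pass the test.

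S100a8 measured 10.35, 10.39 and 11.44 in the tumour-free samples and 13.25, 13.09 and 13.25 in the tumour-bearing samples. Every tumour-bearing sample lay above every tumour-free one, and the tumour-bearing samples lay close together. The means were 10.72 ± 0.62 and 13.20 ± 0.09 (SD, n = 3 each), a difference of 2.48 ± 0.29 (SE, limma adjusted p = 0.0027). S100a9 measured 10.73, 10.74 and 11.88 without tumour and 13.53, 13.38 and 13.45 with it, a difference of 2.34 ± 0.30 (limma adjusted p = 0.0043). Both alarmin genes were highest without tumour in replicate 3, and that sample still lay below all tumour-bearing ones.

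Cxcr2, Retnlg and Mmp8 separated the groups too. Cxcr2 measured 7.59, 7.56 and 7.83 without tumour and 9.73, 9.94 and 9.21 with it. Its tumour-free values were the closest together of any member, and it rose by 1.96 ± 0.25 (SE, limma adjusted p = 0.0043). Retnlg measured 8.63, 8.28 and 9.65 without tumour and 11.06, 10.94 and 10.63 with it, and rose by 2.02 ± 0.34 (limma adjusted p = 0.0168). Mmp8 measured 6.96, 7.15 and 7.76 without tumour and 8.87, 9.17 and 9.09 with it, and rose by 1.75 ± 0.27 (limma adjusted p = 0.0108). For both, all tumour-bearing samples lay above all tumour-free samples. Calls of S100a8, S100a9 and Cxcr2 were kept whichever sample was left out, with limma adjusted p of at most 0.0344. Retnlg missed the threshold without tumour-free replicate 1 (0.0676) or without tumour-bearing replicate 1 (0.0899), 2 (0.0729) or 3 (0.0517), and Mmp8 without tumour-bearing replicate 2 (0.0587) or 3 (0.0564).

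Ngp, Camp and Ltf, the 3 genes grouped here as specific granule genes, behaved unlike the alarmins in the tumour-free samples. Mmp8, whose protein is also stored in granules, was not put in this group and separated the samples (above). Ngp measured 9.67, 7.35 and 11.03 without tumour and 11.34, 10.81 and 11.30 with it. Tumour-free replicate 3 reached the level of the tumour-bearing samples and replicate 2 lay far below, so the groups overlapped. The difference was 1.80 (95% confidence interval 0.03 to 3.57, limma adjusted p = 0.28). Camp measured 7.60, 6.07 and 8.75 without tumour and 9.71, 8.73 and 9.68 with it, a difference of 1.90 (0.49 to 3.31, limma adjusted p = 0.15). Ltf measured 8.59, 7.09 and 10.42 without tumour and 10.70, 10.21 and 10.33 with it, a difference of 1.72 (0.12 to 3.31, limma adjusted p = 0.25). In all 3 genes the tumour-free samples stood in 1 order, with replicate 2 lowest and replicate 3 highest. A fit blocked on the replicate number was also made. The labels do not say that the number pairs samples, and it was taken to do so from correlations in these same data. In that fit Ngp (limma adjusted p = 0.0289), Camp (0.0034) and Ltf (0.0395) passed the threshold. It called 8 of the 10 members, among 1026 genes called of 13233 tested, beside 469 in the main fit. The differences of Ngp, Camp and Ltf depended on the tumour-free sample left out. Without replicate 3, Ltf differed by 2.58 (limma adjusted p = 0.0405), and without replicate 2, Ngp differed by 0.80 (0.228), Camp by 1.20 (0.127) and Ltf by 0.91 (0.269).

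Mmp9 and Csf3r, which macrophages and monocytes also transcribe, differed least. Mmp9 measured 12.55, 11.83 and 11.15 without tumour and 12.29, 12.79 and 12.34 with it, a difference of 0.63 (95% confidence interval −0.13 to 1.39, limma adjusted p = 0.40). Without tumour-free replicate 1 it was 0.98 (limma adjusted p = 0.152) and without replicate 3 it was 0.28 (0.723). Its tumour-free samples stood in a different order from the granule genes, with replicate 1 highest and replicate 3 lowest. Csf3r measured 12.37, 12.10 and 12.44 without tumour and 12.45, 12.68 and 12.12 with it, a difference of 0.11 (−0.32 to 0.55, limma adjusted p = 0.84).

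The same question was asked in TIM4+CD206hi KCs, the subset with more CD206, the mannose receptor, on its surface. S100a8, S100a9, Cxcr2 and Mmp8 were higher with tumour, 4 of the 10 members at the same threshold, and 0 were lower. Of all 14561 genes tested, 7.23% were called, 5.21% higher and 2.03% lower. For 8 members the tumour-bearing samples all lay above the tumour-free ones and for 0 all lay below, where 15.6% and 15.2% of genes tested did so. The median difference of the members was 2.07, beside 0.03 over all genes tested.

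Cxcr2 measured 7.62, 8.00 and 8.15 without tumour and 10.65, 10.55 and 9.76 with it. It rose by 2.40 ± 0.29 (SE, limma adjusted p = 0.0028), the smallest adjusted p of the members in this subset, and it was called whichever sample was left out. Mmp8 measured 7.04, 7.78 and 8.70 without tumour and 10.05, 10.58 and 9.79 with it, and rose by 2.30 ± 0.43 (limma adjusted p = 0.0205). S100a8 measured 9.32, 9.51 and 10.86 without tumour and 12.17, 12.08 and 11.44 with it. Replicate 3 was the highest tumour-free and the lowest tumour-bearing sample, and the groups did not overlap. S100a8 rose by 1.99 ± 0.42 (limma adjusted p = 0.0337). S100a9 measured 9.54, 9.37 and 11.17 without tumour and 12.47, 12.33 and 11.71 with it, and rose by 2.14 ± 0.48 (limma adjusted p = 0.0425). The calls of S100a8, S100a9 and Mmp8 were each lost without tumour-free replicate 1 (0.123, 0.158 and 0.057) and without tumour-bearing replicate 1 (0.157, 0.183 and 0.0925), 2 (0.159, 0.177 and 0.111) or 3 (0.07, 0.0897 and 0.0608). S100a9 was also lost with no filter (0.0583) or a stricter one (0.0592).

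Retnlg measured 7.92, 8.62 and 9.25 without tumour and 10.56, 10.47 and 9.54 with it. The groups did not overlap, and the difference of 1.59 (95% confidence interval 0.63 to 2.55) had a limma adjusted p of 0.066. Ngp measured 8.45, 6.17 and 10.84 without tumour and 11.33, 10.34 and 10.83 with it, a difference of 2.35 (−0.10 to 4.80, limma adjusted p = 0.25). Camp measured 6.25, 4.78 and 8.71 without tumour and 8.58, 7.47 and 8.31 with it, a difference of 1.54 (−0.60 to 3.68, limma adjusted p = 0.37). Tumour-free replicate 3 had the highest Camp value of all 6 samples of this subset. Ltf measured 8.29, 6.08 and 10.14 without tumour and 11.09, 10.26 and 10.20 with it, a difference of 2.35 (0.20 to 4.50, limma adjusted p = 0.20) between groups that all but met. As in TIM4+CD206+ KCs, replicate 2 was lowest and replicate 3 highest of the tumour-free samples for all 3 specific granule genes. The labels do not say whether same-numbered samples of both subsets came from the same livers. The TIM4+CD206hi samples may therefore not be an independent repeat. Without tumour-free replicate 3, Ngp differed by 3.53 (limma adjusted p = 0.0358), Camp by 2.60 (0.0416), Ltf by 3.33 (0.0394) and Retnlg by 1.92 (0.0371). Without tumour-free replicate 2, Ngp differed by 1.19 (limma adjusted p = 0.227), Camp by 0.64 (0.523) and Ltf by 1.30 (0.13). Retnlg also passed without tumour-free replicate 2 (0.0477).

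Mmp9 measured 11.88, 10.75 and 9.59 without tumour and 12.35, 12.56 and 11.99 with it. Replicate 1 was highest and replicate 3 lowest of the tumour-free samples, as in the other subset, and the difference was 1.56 (95% confidence interval 0.32 to 2.79, limma adjusted p = 0.15). Without tumour-free replicate 1 it was 2.13 (limma adjusted p = 0.0426), and without replicate 3 it was 0.98 (0.167). Csf3r measured 11.68, 12.02 and 12.26 without tumour and 12.79, 12.72 and 12.32 with it, a difference of 0.62 (0.12 to 1.12, limma adjusted p = 0.15). Whether any member changed more in one subset than in the other was not tested, because the tables were normalized apart.

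**Figure D2:**
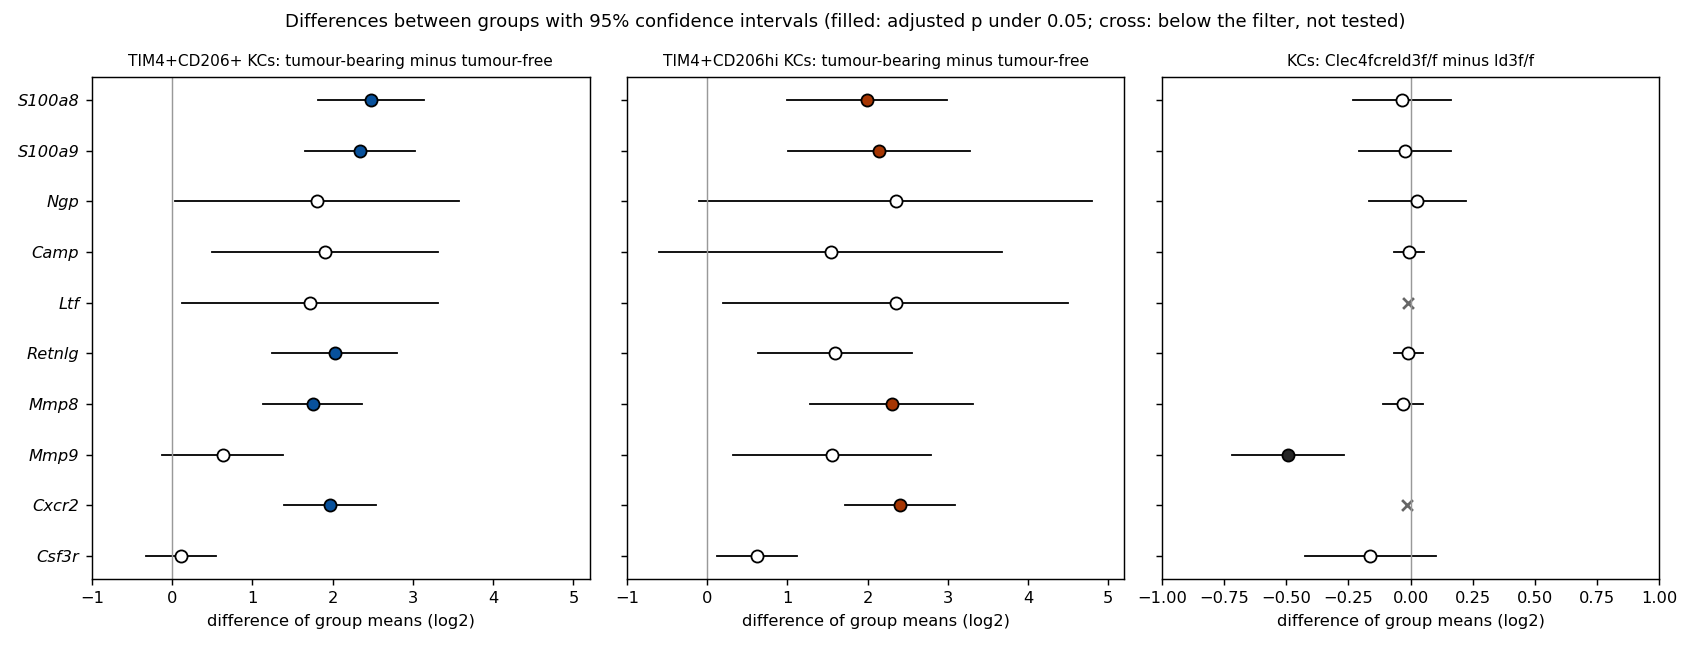
Difference between group means (log2, horizontal axis) of each transcript in the 3 comparisons, with 95% confidence intervals from limma; filled points have an adjusted p under 0.05 and crosses were not tested. The scale of the third panel is narrower. S100a8, S100a9, Cxcr2 and Mmp8 are filled in both tumour comparisons, the intervals of Ngp, Camp and Ltf are the widest, and in the Id3 comparison Mmp9 alone is filled, at −0.49.

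The alarmins were set against genes that are more strictly those of neutrophils (Ngp, Camp, Ltf, Retnlg, Mmp8 and Cxcr2) within each library. In TIM4+CD206+ KCs the mean of S100a8 and S100a9 exceeded the mean of the 6 genes by 2.36, 3.31 and 2.42 without tumour and by 3.16, 3.27 and 3.31 with it. The means of this excess were 2.70 ± 0.53 and 3.25 ± 0.08 (SD, n = 3 each), so the alarmins differed by 0.55 more than the strict genes, a gap close to the tumour-free SD, and the groups overlapped. The strict genes stood lower than the alarmins (means of 8.22 and 10.92 without tumour). The scale understates differences of low genes, and its part in the gap was not tested. With 1 sample left out the gap was 0.38 to 0.86, the latter without tumour-free replicate 2. Among samples of the same number the excess was larger with tumour in 2 of 3 pairs. Set against all 8 other members, Mmp9 and Csf3r included, the excess was 1.29, 2.13 and 1.78 without tumour and 2.62, 2.58 and 2.76 with it, and the groups did not overlap. The excess in TIM4+CD206hi KCs was 1.84, 2.54 and 1.72 without tumour and 1.94, 2.26 and 1.83 with it. There the change of the alarmins and that of the strict genes differed by −0.02. No test was made of either value. Against Retnlg, Mmp8 and Cxcr2 alone the excess was 2.98 ± 0.23 without and 3.48 ± 0.24 with tumour in TIM4+CD206+ KCs, and 1.84 ± 0.51 and 1.82 ± 0.13 in TIM4+CD206hi KCs, again with overlap. In TIM4+CD206+ KCs the numbers were taken to pair the samples, which the labels do not say. There the excess over Retnlg, Mmp8 and Cxcr2 was larger with tumour in 3 of 3 pairs (2.81 and 3.50, 2.90 and 3.22, 3.24 and 3.71).

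Groups of neutrophil genes differed in how tumour-free samples compared with tumour-bearing ones. The mean of the specific granule genes ranged from 6.84 to 10.07 over the tumour-free TIM4+CD206+ samples and from 9.92 to 10.58 over the tumour-bearing ones, and the groups overlapped. That of Retnlg, Mmp8 and Cxcr2 ranged from 7.66 to 8.41 and from 9.64 to 10.02 without overlap. Azurophil granule genes (Mpo, Elane, Prtn3, Ctsg and Ms4a3) averaged 6.20, 5.28 and 8.17 without tumour and 7.26, 7.05 and 6.66 with it, so tumour-free replicate 3 was the highest of the 6. The specific granule genes of TIM4+CD206hi KCs ranged from 5.68 to 9.89 and from 9.36 to 10.33, and Retnlg, Mmp8 and Cxcr2 from 7.53 to 8.70 and from 9.70 to 10.53. The mean of the 5 azurophil genes, 3 of which did not reach the filter in this subset, lay between 3.43 and 4.43 in all 6 samples, with replicate 3 at 3.92 without tumour.

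**Figure D3:**
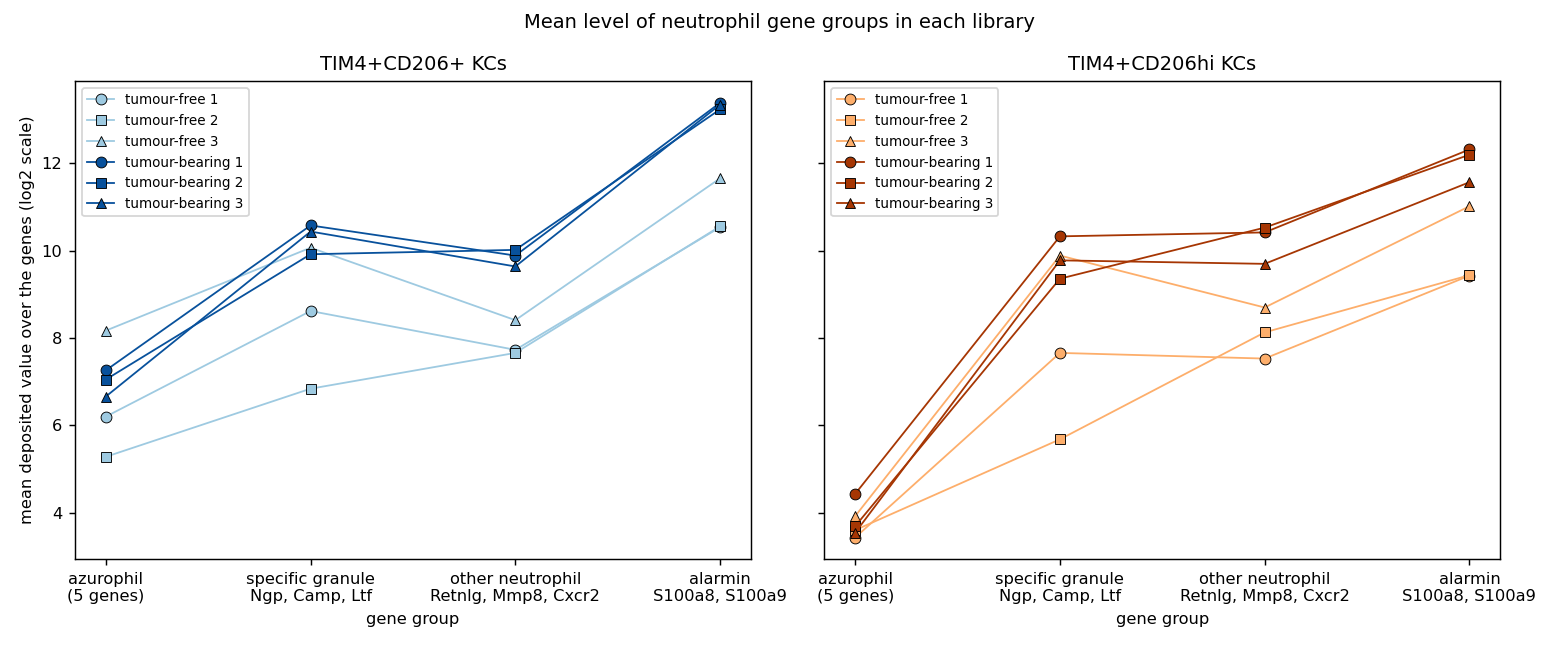
Mean deposited value (log2 scale, vertical axis) of azurophil genes, of specific granule genes, of Retnlg, Mmp8 and Cxcr2, and of the alarmin genes in each library of both KC subsets; each line is 1 library. Lines of tumour-free libraries lie apart at the specific granule genes (6.84 to 10.07 and 5.68 to 9.89) and reach the tumour-bearing ones there, while at the last 2 gene groups the tumour-bearing libraries lie above.

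S100a8 and S100a9 kept close to each other in every library. S100a9 minus S100a8 was 0.39 ± 0.05 in tumour-free and 0.25 ± 0.05 in tumour-bearing TIM4+CD206+ KCs, 0.13 ± 0.24 and 0.28 ± 0.03 in TIM4+CD206hi KCs, and −0.78 ± 0.04 and −0.76 ± 0.01 in Id3f/f and Clec4fcreId3f/f KCs (SD). Deviations from the group mean over the 17 samples gave r = 0.99 for S100a8 with S100a9, the highest of 12222 genes tested in all 3 tables. It was followed by Sirpb1c (0.96), Bcl2a1a (0.93), Sirpb1b (0.93) and Parvg (0.92). The Sirpb1 and Bcl2a1 genes come in near-identical copies, so their values are uncertain. Ngp was most like Camp (r = 0.98), then Snx12 (0.97), Sf3b1 (0.97), Gm30505 (0.96) and C3 (0.96). Csf3r was most like Ubox5 (0.88), Nkiras2 (0.88), Zfp385c (0.87), Osgin1 (0.86) and Pfkfb4 (0.84), and no other member was among its 5. S100a8 with Ngp gave r = 0.74, with Retnlg 0.88, with Mmp8 0.87 and with Mmp9 −0.75. These correlations describe samples that share a table and its normalization, and the differences among the tumour-free replicates weigh most in them. Samples of both subsets may also share livers, which the labels do not say, so the 17 samples may not be independent.

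Other genes of neutrophils moved with the members in part. Of 14 other specific and gelatinase granule genes, 3 of 13 tested rose in TIM4+CD206+ KCs and 5 of 14 in TIM4+CD206hi KCs, and 0 fell in either by limma, also at an unadjusted p under 0.05. The median differences were 1.31 and 1.48, beside 0.02 and 0.03 over all genes tested. Of all genes tested, 2.55% were called higher and 0.998% lower in TIM4+CD206+ KCs, and 5.21% and 2.03% in TIM4+CD206hi KCs. The list is not confined to granule proteins of neutrophils. Chil3 and Itgam are also among the monocyte markers, and Ltb4r1 encodes a surface receptor. Chil3, a chitinase-like gene of neutrophils and macrophages whose near-identical relative Chil4 makes its value uncertain, rose by 3.10 ± 0.29 and 2.68 ± 0.47 (SE). Cd177, a surface protein of neutrophils, rose by 1.80 in TIM4+CD206hi KCs (limma adjusted p = 0.0135) and differed by 1.66 in the other subset (0.0591). Ltb4r1, a leukotriene B4 receptor, rose by 3.02 in TIM4+CD206hi KCs (0.0416) and differed by 1.65 in the other (0.2), and Adam8, a surface protease, rose by 1.61 in TIM4+CD206+ KCs (0.00939) and differed by 2.04 in the other (0.0972). Lcn2, which encodes the iron-sequestering lipocalin of specific granules, measured 8.23, 7.73 and 9.97 without tumour and 10.79, 10.45 and 10.41 with it in TIM4+CD206+ KCs (limma adjusted p = 0.0892). The TIM4+CD206hi samples measured 7.75, 7.01 and 9.74, and 10.51, 10.09 and 9.73 (0.146), again with tumour-free replicate 3 near the tumour-bearing level.

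Of the other mature neutrophil genes, 3 of 14 tested rose and 2 fell in TIM4+CD206+ KCs, and 4 of 15 rose and 1 fell in TIM4+CD206hi KCs. Their median differences were 0.92 and 0.67, and the shares over all genes tested are those given above. Il1r2, the decoy receptor for interleukin-1, rose by 2.76 ± 0.22 and 2.88 ± 0.35 (SE), Trem1 by 2.16 ± 0.25 and 2.10 ± 0.26, and G0s2, an inhibitor of lipolysis, by 2.14 ± 0.24 and 2.11 ± 0.48. The genes that fell were the formyl peptide receptors, which stood at 9.75 or higher in every sample and which were named after their values were seen. Fpr1 was the one called in both subsets and fell by 0.98 and 0.99. Fpr2 fell by 0.99 in TIM4+CD206+ KCs and missed the threshold in TIM4+CD206hi KCs (limma adjusted p = 0.207). Ly6g measured 5.52, 5.38 and 6.62 without tumour and 7.16, 6.80 and 6.75 with it in TIM4+CD206+ KCs (limma adjusted p = 0.168), although cells with surface Ly6G had been gated out. Its TIM4+CD206hi values were 3.51, 3.69 and 4.69, and 5.94, 5.68 and 5.47, and it rose by 1.73 ± 0.33 (limma adjusted p = 0.0224).

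Of the azurophil granule genes, 0 of 5 tested in TIM4+CD206+ KCs and 0 of 2 in TIM4+CD206hi KCs passed the test by limma, and 1 and 0 had an unadjusted p under 0.05. Their median differences were 0.26 and 0.40. Mpo measured 7.24, 5.23 and 10.03 without tumour and 8.04, 8.03 and 7.19 with it in TIM4+CD206+ KCs, and Elane 6.74, 5.14 and 9.14, and 7.24, 7.15 and 6.71. Of 6 neutrophil transcription factors tested in each subset, 0 passed the test by limma in either, and 1 was higher and 1 lower in each at an unadjusted p under 0.05. Cebpe, the gene for C/EBPε, measured 4.71, 4.94 and 5.64 without tumour and 5.86, 5.85 and 5.93 with it in TIM4+CD206+ KCs, and 3.67, 3.94 and 3.90, and 4.46, 4.68 and 4.40, in TIM4+CD206hi KCs. The groups did not overlap, and the limma adjusted p were 0.178 and 0.0671. Of the neutrophil attractants and growth factors, 0 of 5 tested passed in TIM4+CD206+ KCs (1 at an unadjusted p under 0.05) and 1 of 6 in TIM4+CD206hi KCs. Cxcl5, a ligand of CXCR2, measured 3.33, 3.76 and 3.37 without tumour and 6.55, 7.49 and 5.89 with it in TIM4+CD206hi KCs, and rose by 3.16 ± 0.40 (SE, limma adjusted p = 0.00327). It did not reach the filter in TIM4+CD206+ KCs.

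**Figure D4:**
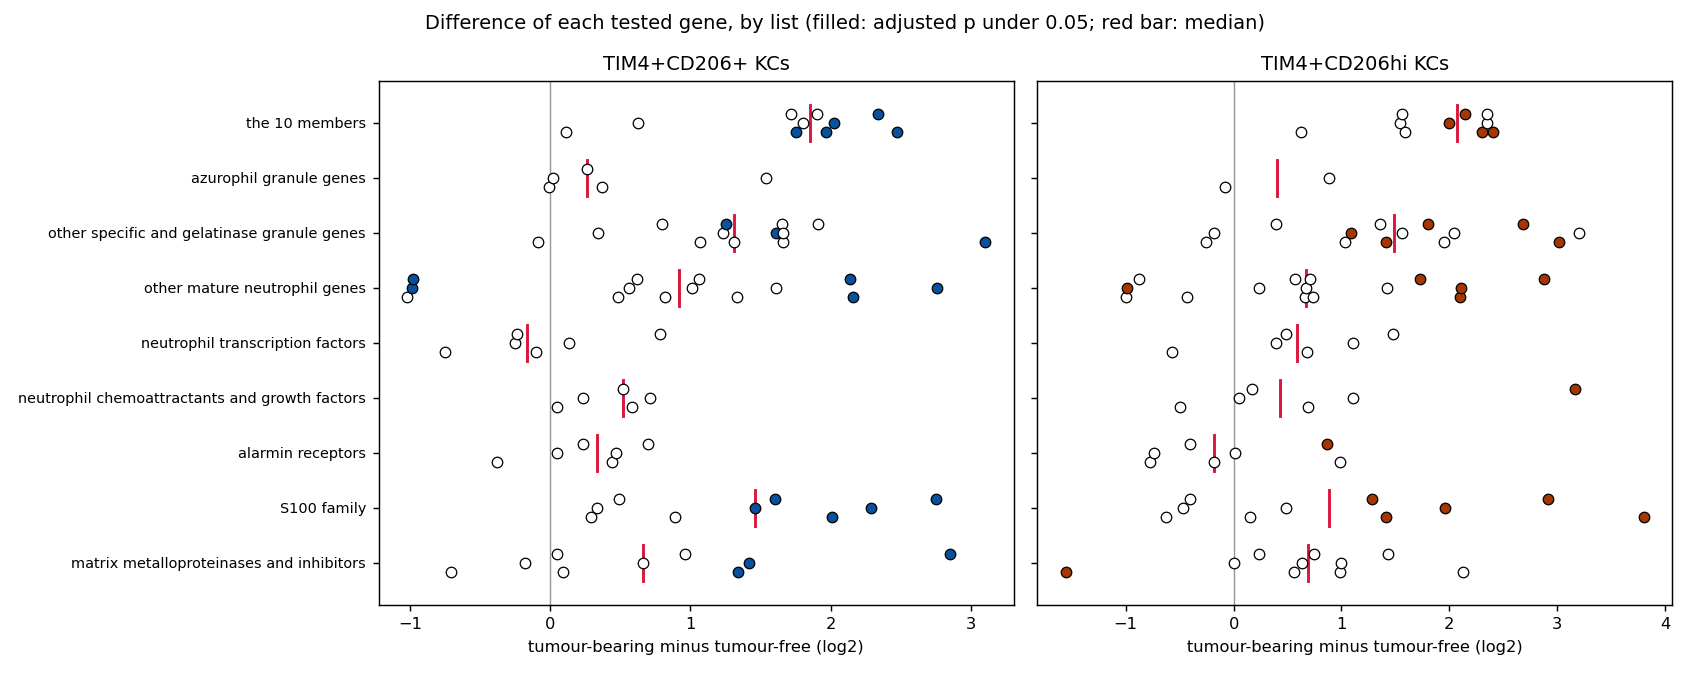
Difference between tumour-bearing and tumour-free samples (log2, horizontal axis) of each tested gene of the 10 members and of 8 lists of related genes, in both KC subsets; filled points have an adjusted p under 0.05 and red bars are medians. The medians of the members are 1.85 and 2.07, and no azurophil granule gene or transcription factor is filled.

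Markers of other cells differed between the groups as well. The 12 neutrophil markers, of which 6 are members, summed to 10.41 to 12.87 without tumour and 13.05 to 13.30 with it in TIM4+CD206+ KCs, and to 10.37 to 12.32 and 12.69 to 13.35 in TIM4+CD206hi KCs, with no marker at 0. Of the 6 that are no members (Ly6g, Cd177, Stfa2l1, Mpo, Elane and Cebpe), 0 were called in TIM4+CD206+ KCs by limma (3 at an unadjusted p under 0.05), and Ly6g and Cd177 were called higher in TIM4+CD206hi KCs. Those 6 summed to 8.45 to 11.20 without tumour and 10.56 to 10.60 with it in the former, and to 7.81 to 8.72 and 9.60 to 10.18 in the latter. The 12 monocyte markers summed to 14.11 to 15.36 and 15.60 to 15.85, and to 14.84 to 15.39 and 15.74 to 15.86, with 4 of 12 called higher in each subset. The 10 markers of tumour epithelium summed to 10.77 to 11.73 and 15.15 to 15.35, and to 10.74 to 11.26 and 15.61 to 15.70, with 9 of 9 tested called higher in each. The 10 hepatocyte markers were lower with tumour (8 of 10 and 7 of 10 called), from 14.56 to 15.08 down to 12.94 to 13.48 in TIM4+CD206+ KCs. The part that RNA of such other cells had in the differences of the members was not tested.

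The last comparison asked what the loss of Id3 in KCs changed without tumour. Id3 measured 12.58, 12.46 and 12.82 in Id3f/f samples and 9.83 and 9.82 in Clec4fcreId3f/f samples (limma adjusted p = 1.4e-06). Of the 8 members tested, Mmp9 alone was called, and it was lower. Of all 12833 genes tested, 6.44% were called, 3.08% higher and 3.37% lower. Mmp9 was also the 1 tested member whose groups did not overlap, where 20.2% of genes tested lay higher and 21.7% lower without overlap. Mmp9 measured 9.70, 9.58 and 9.66 in Id3f/f samples and 9.26 and 9.05 in Clec4fcreId3f/f samples. It fell by 0.49 on the log2 scale (SE 0.10, n = 3 and 2, limma adjusted p = 0.0237). The call was lost without Id3f/f replicate 1 (0.0869) or 2 (0.0516), or without Clec4fcreId3f/f replicate 1 (0.163) or 2 (0.257).

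S100a8 measured 6.59, 6.41 and 6.44 in Id3f/f samples and 6.34 and 6.55 in Clec4fcreId3f/f samples. The groups overlapped, and the difference was −0.04 (95% confidence interval −0.23 to 0.16, limma adjusted p = 0.85). S100a9 measured 5.83, 5.59 and 5.69, and 5.58 and 5.78, a difference of −0.02 (−0.21 to 0.16, limma adjusted p = 0.90). Csf3r measured 9.98, 10.13 and 10.26, and 10.09 and 9.82, a difference of −0.16 (−0.43 to 0.10, limma adjusted p = 0.46). Ngp (5.35 to 5.59 over the 5 samples), Camp (3.27 to 3.35), Retnlg (3.47 to 3.54) and Mmp8 (4.43 to 4.52) overlapped between the genotypes. Ltf (0.85 to 0.87) and Cxcr2 (1.59 to 1.63) did not reach the filter and were not tested. Of the related genes, 0 of 10 tested other specific and gelatinase granule genes and 0 of 11 other mature neutrophil genes passed the test by limma, where 3 were higher in the former and 2 lower in the latter at an unadjusted p under 0.05.

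The median SD within groups was 0.029 for tested genes under a mean of 4 and 0.110 for genes between 8 and 10 in this table. Low values on this scale lie close together, so the narrow intervals of the low members do not bound their change in reads. S100a9 stood above 54.5% of genes tested per kilobase in Id3f/f KCs and S100a8 above 59.6%, while Csf3r stood above 75.8% and Mmp9 above 70.9%. Ly6g was listed at 0 in all 5 samples. The neutrophil markers summed to 6.85 to 6.94 in Id3f/f and 6.84 to 6.93 in Clec4fcreId3f/f samples. The genotypes also differed in sex-linked genes, with Xist at 6.33 to 6.38 in Id3f/f and 9.76 to 9.84 in Clec4fcreId3f/f samples and Ddx3y at 9.43 to 9.46 and at most 7.01. Genotype and sex therefore cannot be told apart for Mmp9 or any other gene of this comparison. Of the 17 KC markers 4 were called higher and 6 lower by limma, Id3 itself among the latter. Clec4f, from which Cre is driven, fell by 1.52 ± 0.06 (SE, limma adjusted p = 1.8e-06). The KC markers summed to 20.67 to 20.70 in Id3f/f and 20.57 to 20.59 in Clec4fcreId3f/f samples. Markers of other cells went both ways. Of 10 monocyte markers tested 3 were called lower (Plac8, Ms4a4c and Ifitm6) and 0 higher by limma (4 and 2 at an unadjusted p under 0.05), while 5 of 10 had higher means in Clec4fcreId3f/f samples and the median difference was −0.01. Red cell markers were lower, with 4 of 7 called and a median of −1.33, and of 5 platelet markers tested Pf4 was called lower. Their part in the difference of Mmp9 was not tested.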

How the data were processed

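RNA of sorted KCs was amplified as cDNA with an unstranded kit and sequenced in 17 samples. The authors aligned reads with STAR 2.7.10a, counted them per gene with HTSeq and used DESeq2, with mm10 named in the submitters' processing notes. The deposited values are log2 values with the features of a regularized log transformation, made separately for each of 3 tables, despite file names that speak of counts and column names that speak of TPM. A log2 test was therefore used. Read depth is unknown from these files. Their linear sums were 32600000 to 39700000 in the tumour tables and 21800000 to 24100000 in the Id3 table.

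The 10 members, the lists and the tests were chosen with earlier results of these data known. The genes named are the members, up to 4 called genes of each list with the largest change, Lcn2, Ly6g, Cebpe, Mpo, Elane and Id3, and for S100a8, Ngp and Csf3r the 5 most alike genes. Genes were fitted in R 4.3.3 by limma 3.58.1, whose prior variance followed the mean level, and p-values were adjusted by Benjamini-Hochberg, for genes at or above log2 of 10 in 3 samples (2 in the Id3 comparison). Tested on simulated data, the fit recovered 32% of 100 genes changed by 1 log2 unit and 74% of 100 changed by 2 for TIM4+CD206+ KCs, 15% and 68% for TIM4+CD206hi KCs, and 88% and 100% for the Id3 comparison. The simulated samples varied independently and the changes were added in full. The deposited scale understates differences of low genes, so these shares do not say how often real changes of low members would be called. Samples with the same replicate number in TIM4+CD206+ KCs deviated together (r = 0.35, 0.56 and 0.15 across genes), so the number was taken to pair them there, although the labels do not say what it stands for. Exonic lengths came from GENCODE M21 and covered 98.3% to 98.5% of tested genes. Python 3.11.15 with numpy 2.4.6, pandas 2.3.3 and matplotlib 3.10.9 served for all other steps. Alternatives were other filters, no trend, median centring, quantile normalization, the replicate block and each sample left out.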

Additional observations from a re-analysis of the deposited data

How the results depend on the processing

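In TIM4+CD206+ KCs 469 genes were called, 231 to 1032 with 1 sample left out and 1026 with the replicate block. Of the 10 members 5 were called, 3 to 6 with 1 sample left out and 8 with the block. In TIM4+CD206hi KCs 1053 genes were called, 600 with the stricter filter (a mean of 50) and 444 to 3633 with 1 sample left out. Of the members 4 were called there, 1 to 8 with 1 sample left out. The higher value of genes called came without tumour-free replicate 2 in both subsets (1032 and 3633) and the higher value of members without tumour-free replicate 3. In the Id3 comparison 827 genes were called, 477 with no filter, 2089 with the replicate block and 17 to 1850 with 1 sample left out. Leaving out Clec4fcreId3f/f replicate 1 (17) or 2 (19) leaves 1 sample of that genotype, which is then assumed to vary like the other group. Of the members 1 was called, and 0 to 1 with 1 sample left out. Where a fit leaves out a sample, fewer samples are compared. The cause of the other shifts was not tested. Same-numbered samples did not deviate together in TIM4+CD206hi KCs (r = −0.05, −0.13 and −0.05) or in the Id3 comparison (−0.07 and −0.10). The number was not taken to pair samples there, and the block shows only another setting.

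The sign turned for members near 0 that were not called. Csf3r in TIM4+CD206+ KCs ranged from −0.02 to 0.26 with 1 sample left out. In the Id3 comparison, S100a8 ranged from −0.14 to 0.07, S100a9 from −0.12 to 0.08, Ngp from −0.09 to 0.14, Camp from −0.03 to 0.02 and Retnlg from −0.04 to 0.01 with 1 sample left out. Ngp was −0.00 with median centring and −0.02 with the replicate block. The change of the alarmins beyond that of the strict neutrophil genes was 0.60 against the specific granule genes and 0.92 against all 8 other members in TIM4+CD206+ KCs, and −0.01 and 0.23 in TIM4+CD206hi KCs, where leaving out 1 sample gave −0.18 to 0.23.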

Other observations

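Some of the other S100 genes, which encode small calcium-binding proteins, also rose with tumour. Of 9 tested in TIM4+CD206+ KCs 5 rose and 0 fell, and of 10 tested in TIM4+CD206hi KCs 5 rose and 0 fell by limma at an adjusted p under 0.05. At an unadjusted p under 0.05, 0 were lower in the former and 3 in the latter. S100a6 rose by 2.75 ± 0.23 and 2.91 ± 0.30 (SE), S100a4 by 2.01 ± 0.22 and 1.41 ± 0.25, and S100a14, an epithelial gene, by 2.29 ± 0.24 and 3.80 ± 0.23. S100b rose by 1.96 ± 0.16 in TIM4+CD206hi KCs and did not reach the filter in the other subset. In the Id3 comparison 2 of 7 tested fell, S100a1 by 0.60 and S100a11 by 0.37, both named after their values were seen. Of the 7, 0 were higher and 5 lower at an unadjusted p under 0.05, and the median difference was −0.33. Over all genes tested in that comparison, 3.08% were called higher and 3.37% lower. Genotype and sex cannot be told apart there.

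Of the matrix metalloproteinases and their inhibitors outside the members, 3 of 9 tested rose in TIM4+CD206+ KCs. Mmp12, the macrophage elastase, measured 10.22, 9.77 and 10.72 without tumour and 12.78, 13.19 and 13.30 with it, and rose by 2.85 ± 0.26 (SE, limma adjusted p = 0.000806). Mmp13 rose by 1.34 and Timp1 by 1.42 there. In TIM4+CD206hi KCs Timp3 alone was called of 10, and fell by 1.55. Of those 10, 8 had higher means with tumour, and the median difference was 0.69. At an unadjusted p under 0.05, 6 were higher and 1 was lower. Mmp12 differed by 2.13 there (limma adjusted p = 0.0891). In the Id3 comparison 3 of 8 tested fell. Mmp12 measured 10.59, 10.52 and 9.08 in Id3f/f and 8.28 and 8.37 in Clec4fcreId3f/f samples and fell by 1.74 ± 0.37, and Mmp13 fell by 0.48 and Mmp27, named after its values were seen, by 0.42. Cebpa was the transcription factor of the neutrophil list that was called in this comparison, and rose by 0.45 ± 0.09. For these genes too, genotype and sex cannot be told apart. Of the receptors of S100A8 and S100A9, 0 of 6 tested passed by limma in TIM4+CD206+ KCs (2 at an unadjusted p under 0.05, 1 in each direction) and 1 of 7 in TIM4+CD206hi KCs, where Cd33, a sialic acid-binding receptor, rose by 0.87 ± 0.19. In that subset 1 was higher and 2 were lower at an unadjusted p under 0.05, and the median difference was −0.18.

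Eosinophil, basophil and mast cell markers summed to 9.22 to 9.56 without tumour and 9.74 to 9.85 with it in TIM4+CD206+ KCs, platelet markers to 10.93 to 11.70 and 11.69 to 12.50, and red cell markers to 15.46 to 16.33 and 15.76 to 17.70. In TIM4+CD206hi KCs the same 3 lists summed to 12.75 to 13.55 and 12.57 to 12.85, to 11.01 to 13.16 and 11.70 to 11.78, and to 13.85 to 14.88 and 13.69 to 15.99. The first of these sums was mostly Kit, named after its values were seen. Kit measured 13.39, 12.46 and 12.60 without tumour and 12.10, 12.31 and 12.46 with it. Mcpt8, Cpa3 and Ms4a2 did not reach the filter there, so the sum does not measure such cells. Of the first list Siglecf alone was called, higher by 1.64 in TIM4+CD206+ KCs (limma adjusted p = 0.0226) and by 1.78 in TIM4+CD206hi KCs (0.0121). The medians of that list were −0.04 over 7 genes tested and −0.28 over 5. Siglecf was named after its values were seen.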
